A study of Mus musculus with 21 samples.

Results

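Cytosolic heat shock proteins are described here through 10 genes: Hspa1a, Hspa1b, Hspa8, Hsp90aa1, Hsph1, Dnajb1, Hspb1, Hspb7, Cryab and Bag3. They were chosen by gene name, all 10 were present among the 19096 genes of the authors' gene matrix, and all 10 passed the filter on low counts. RNA was measured by sequencing in heart tissue of 21 male C57BL/6NJ mice, 1 library per heart. Mice entered at 8 to 10 weeks of age and were fed chow or a high-fat diet (60% of energy as fat) for 10 weeks. Renin was delivered by an adeno-associated virus injected behind the eye (retro-orbital), a null vector served as its control, and hearts were taken 6 weeks later. On chow there were 4 hearts without renin (chow control) and 6 with it (chow renin), and on the fat diet 6 without (high-fat control) and 5 with it (high-fat renin). The last of these was the combined model, meant to resemble heart failure in which the ejection fraction is kept, and chow renin and high-fat control carried 1 of its components each. The sample labels write no virus for the control groups, whereas the series description gives them a null vector. The promoter of the renin vector and the cells it reached are not given in the sources used here.

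Heat shock proteins are chaperones that bind unfolded or newly made proteins and keep them from aggregating. Hsp70 proteins work in cycles with a J-domain protein that delivers the client and a nucleotide exchange factor that releases it, and Hsp90 takes over some of those clients later. Small heat shock proteins hold unfolded proteins without using ATP. In heart muscle they sit largely on the sarcomere, and BAG3 links them to Hsp70 and to autophagy of damaged muscle proteins. The stress-inducible genes among these are driven by the heat shock factor HSF1, which binds heat shock elements made of repeated GAA and TTC units.

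The promoters are shown because that element is what the inducible members are known to share. RefSeq promoter windows (GRCm38.p6, 250 bases before to 50 bases after the start site) were at hand for 7 of the 10 genes, and are not shown for Hspa8, Hsp90aa1 and Cryab. A 2-unit core was searched as GAANNTTC or TTCNNGAA, which are each their own reverse complement. A 3-unit element was searched as GAANNTTC directly followed by NNGAA, or TTCNNGAA directly followed by NNTTC. These 2 strings are each other's reverse complement and contain the 2-unit core. In the windows below, written 5′ to 3′ on the gene's strand, capitals mark every match: Hspa1a is at chr17:34972107-34972406 (minus strand), Hspb1 at chr5:135887669-135887968 (plus strand) and Hsph1, from the first of its 2 start sites, at chr5:149636287-149636586 (minus strand).
Hspa1a: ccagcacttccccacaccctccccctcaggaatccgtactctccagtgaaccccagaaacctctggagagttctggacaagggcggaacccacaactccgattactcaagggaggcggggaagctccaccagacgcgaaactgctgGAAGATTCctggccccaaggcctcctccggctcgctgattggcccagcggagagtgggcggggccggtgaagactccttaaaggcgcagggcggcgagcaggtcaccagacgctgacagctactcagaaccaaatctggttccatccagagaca
Hspb1: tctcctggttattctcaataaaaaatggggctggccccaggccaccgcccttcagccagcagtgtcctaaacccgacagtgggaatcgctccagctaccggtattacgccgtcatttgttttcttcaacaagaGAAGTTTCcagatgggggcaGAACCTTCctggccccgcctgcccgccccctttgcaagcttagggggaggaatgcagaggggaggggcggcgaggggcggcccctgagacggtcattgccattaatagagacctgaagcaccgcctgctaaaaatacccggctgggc
Hsph1: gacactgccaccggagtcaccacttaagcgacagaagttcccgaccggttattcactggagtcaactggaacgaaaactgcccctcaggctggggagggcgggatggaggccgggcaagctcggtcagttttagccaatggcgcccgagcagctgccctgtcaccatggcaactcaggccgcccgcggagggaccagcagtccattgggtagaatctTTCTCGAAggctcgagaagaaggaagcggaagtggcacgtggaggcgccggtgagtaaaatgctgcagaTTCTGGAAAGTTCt

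The 2-unit core was found in 5 of the 7 genes with a window, against 15.1% of 32817 RefSeq promoter windows of the same length. It began 104 bases before the start site in Hspa1a and at the same place in Hspa1b, whose windows have the same base at 296 of 300 positions. Hspb1 had a core 117 bases and another 97 bases before the start, Hsph1 had cores 33 bases before and at bases 36 and 41 after the start, and Bag3 had a core that began at base 42. The 3-unit element was found in Hsph1 only, against 0.603% of all windows. Dnajb1 and Hspb7 held neither string, which says only that these letters are not in these windows.

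Members differed widely in level. Compared per transcript length, as transcripts-per-million values (TPM) averaged over 21 libraries, Cryab was highest at 1312 ± 192 (SD), followed by Hspb7 at 592 ± 105, Hspa8 at 582 ± 93.1 and Hspb1 at 234 ± 55.0. Bag3 followed at 82.3 ± 8.12 TPM, Hsp90aa1 at 54.9 ± 18.7 and Hsph1 at 22.0 ± 6.68. The inducible genes Dnajb1, Hspa1b and Hspa1a were lowest, at 5.12 ± 1.02, 2.19 ± 0.737 and 1.96 ± 0.921 TPM. The constitutive Hsp70 and 3 small heat shock proteins held the top places. Hspb7 and Hspa8, and Hspa1b and Hspa1a, lay closer together than their spread between libraries.

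Depth and marker levels of other cell types differed by group. With all libraries thinned to the smallest total, the number of members called was the same in each of the 6 comparisons. Library totals ranged from 18.7 M to 29.3 M estimated reads (mega-reads), and chow control was sequenced least, with at most 21.4 M per library against at least 22.8 M elsewhere. Heart muscle was present throughout: all 9 cardiomyocyte markers had reads in every group, and their summed level was 56325 to 66174 in chow control (counts-per-million values, CPM) and 53654 to 55685 in chow renin. On the high-fat diet it was 55436 to 62582 CPM without renin and 46122 to 52707 CPM with it. In bulk tissue, fewer cells of a type and less RNA per cell cannot be told apart. The 8 central neuron markers summed to 275 to 424 CPM in chow renin and to 106 to 176 in the other groups, with none at 0. A clock score, the mean log2 CPM of 9 day-phase genes minus that of 5 night-phase genes, averaged 3.60 without and 3.09 with renin on chow, and 3.34 without and 2.86 with it on the high-fat diet. The lowest library was high-fat renin replicate 1 at 2.21. By group the score was 3.41 to 3.73 in chow control and 2.93 to 3.26 in chow renin. It was 3.16 to 3.54 in high-fat control and 2.21 to 3.25 in high-fat renin, so both renin groups lay below chow control without overlap. The 6 atrial markers, of which 5 passed the filter on low counts, summed to 175 to 1164 CPM (median 253) in chow control. In chow renin they summed to 78.0 to 934 CPM (median 426). On the high-fat diet they summed to 66.9 to 827 CPM (median 107) without renin and 141 to 1014 (median 708) with it. By this sum the groups overlapped but high-fat renin had the highest median. By an atrial score, the mean log2 CPM of the tested atrial markers, the highest mean was in chow renin. It was 3.77 there (1.68 to 7.09) and 3.22 in high-fat renin (2.03 to 6.95). The 6 fibroblast markers were also highest in high-fat renin, at 745 to 1172 CPM (median 797). Their sums were 504 to 881 CPM (median 529) in chow control, 479 to 707 (median 497) in chow renin and 497 to 1134 (median 564) in high-fat control. The part of cardiomyocyte and fibroblast content in the results was not tested.

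**Figure D1:**
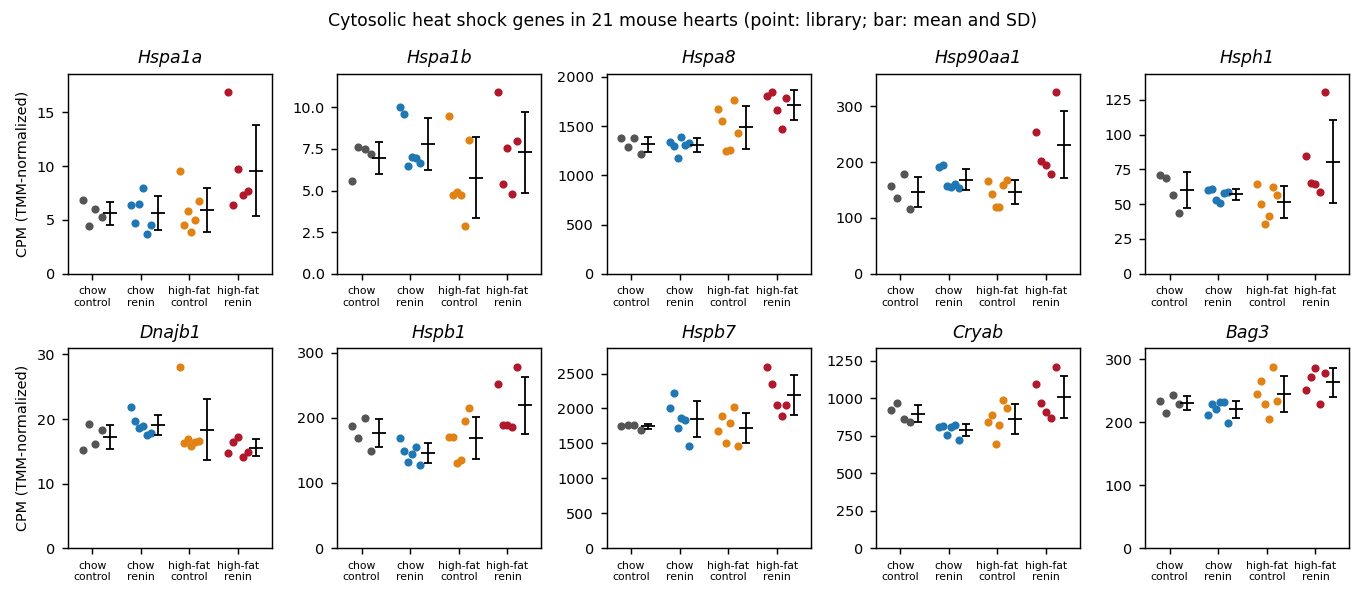
Level of each gene in CPM (TMM-normalized, vertical axis from 0) in every library of the 4 groups; points are libraries and bars the mean and SD. Hspa8, Hsp90aa1 and Hspb7 lie higher in all 5 high-fat renin hearts than in all 4 chow control hearts, and Hspa1a and Hsph1 each have a single high-fat renin library far above the rest (16.9 and 131 CPM).

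Against chow control, hearts of the combined model held more RNA of the constitutive Hsp70 and of the inducible Hsp90. Of 10 members, 2 were called higher at an adjusted p under 0.05 and 0 lower, where 8.29% of all 15216 genes tested were called (4.05% higher, 4.25% lower). The median log2 fold change of the members was 0.32, beside 0.01 for all genes, and 9 of 10 were above 0. In CPM, all libraries lay higher than all chow control libraries for 3 members, against 4.98% of all genes. In TPM all 3 overlapped: the lowest high-fat renin and highest chow control values were 550 and 575 for Hspa8. They were 55.8 and 56.4 for Hsp90aa1, and 573 and 578 for Hspb7.

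Hspa8 (GRCm38 chr9:40800984-40810087, plus strand) encodes Hsc70, the Hsp70 that cells make without stress and that folds new proteins and uncoats clathrin vesicles. It measured 1378, 1286, 1381 and 1220.0 CPM in chow control and 1802, 1844, 1658, 1469 and 1786 CPM in high-fat renin. In chow renin the lowest, median and highest values were 1176, 1319 and 1389 CPM, and in high-fat control 1247, 1490.4 and 1768 CPM. In CPM, though not in TPM, high-fat renin lay above both chow groups without overlap. It overlapped high-fat control, whose libraries spread from the chow level to the high-fat renin level. Between high-fat renin and chow control the difference was 0.38 on the log2 scale (SE 0.09, adjusted p = 0.0152). Without chow control replicate 2 or 4 the adjusted p was 0.0564 or 0.0642.

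Hsp90aa1 (chr12:110690605-110702728, minus strand) encodes the stress-inducible cytosolic Hsp90, which matures kinases and steroid receptors. Chow control values were 157, 136, 179 and 116 CPM, and high-fat renin values were 254, 202, 194, 179 and 325 CPM. Chow renin had 153, 159 and 194 CPM as lowest, median and highest, and high-fat control had 119.9, 151 and 167 CPM. In CPM all high-fat renin hearts lay above both control groups, the lowest of them only just above the highest chow control heart. They overlapped chow renin, and in TPM also chow control. The difference from chow control was 0.65 on the log2 scale (SE 0.16, adjusted p = 0.0162). Without chow control replicate 2 or 4 the adjusted p was 0.0564 or 0.0684, and with only the 2 groups in the fit it was 0.0888. With the clock score as a covariate no member and 0 of all genes were called in this comparison. The log2 fold changes of Hspa8 and Hsp90aa1 were then 0.13 and 0.21. The clock score does not overlap between these groups (3.41 to 3.73 in chow control, 2.21 to 3.25 in high-fat renin). In that fit score and group can hardly be told apart.

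In the same comparison Hspb7 measured 0.33 on the log2 scale (adjusted p = 0.0667) and Hspa1a 0.76 (adjusted p = 0.112), and neither was called. Hsph1 measured 0.42, Hspb1 0.31, Bag3 0.19, Cryab 0.17, Hspa1b 0.07 and Dnajb1 −0.15, with adjusted p from 0.16 to 0.912. For the same members, the authors' deposited table gives an adjusted p of 0.0078 for Hspa8 (log2 fold change 0.298) and 0.00163 for Hsp90aa1 (0.548). Its other 8 values are 0.0618 or more. That table does not name the groups it compares.

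**Figure D2:**
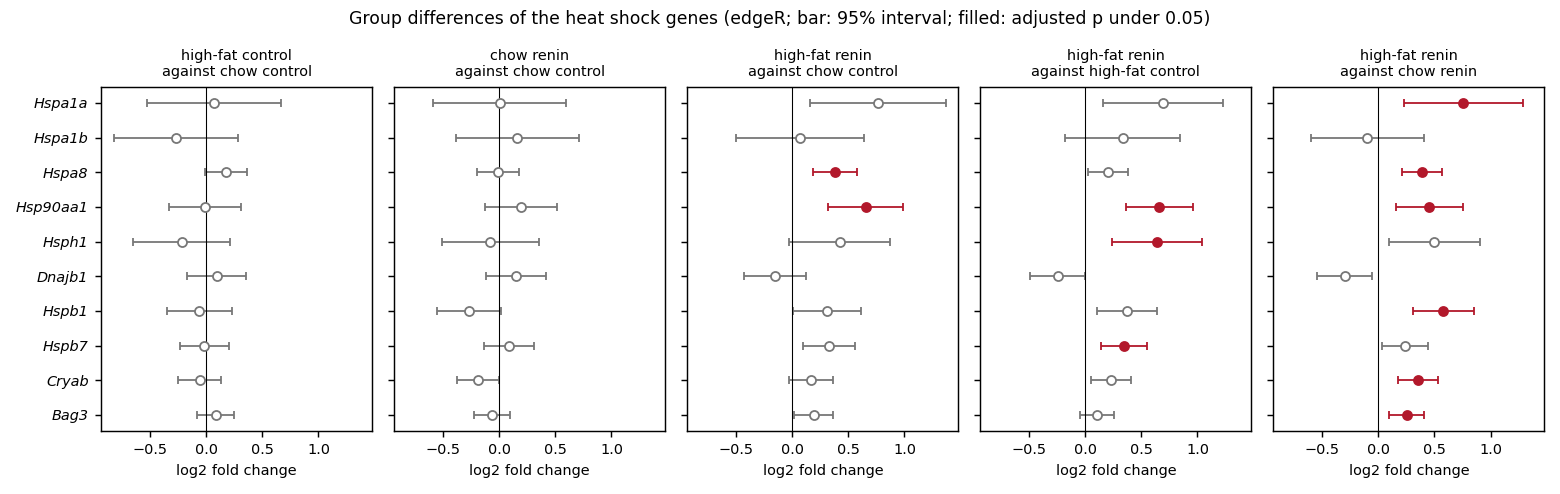
Log2 fold change of each gene (horizontal axis) with its 95% interval in 5 comparisons between groups from the edgeR fit; filled red points are called at an adjusted p under 0.05. Filled points number 0 in the 2 comparisons of a single component with chow control, 2 against chow control, 3 against high-fat control and 6 against chow renin for the combined group.

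Neither component alone gave a called member. On the high-fat diet without renin, 0 of 10 members were called against chow control, where 0.0657% of all genes were (0.0131% higher, 0.0526% lower), or 2 genes higher and 8 lower, against 44 and 67 by DESeq2 and 1 and 90 with limma on log2(TPM + 1). None of the 10 had an unadjusted p under 0.05 by edgeR, and 0 were called by DESeq2. Hspa8 had 0.18 (adjusted p = 0.486, 95% interval −0.01 to 0.36), Dnajb1 0.09, Bag3 0.09 and Hspa1a 0.07. Below 0 were Hspa1b at −0.27, Hsph1 at −0.22, Hspb1 and Cryab at −0.06 each, Hspb7 at −0.02 and Hsp90aa1 at −0.0072. With renin on chow, 0 of 10 were called against 13.5% of all genes (10.1% higher, 3.36% lower), and again none had an unadjusted p under 0.05 by edgeR and 0 were called by DESeq2.

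With renin on chow 5 of 10 members had values below 0, and the 2 lowest were small heat shock proteins, while the other member of that family, Hspb7, had 0.09 (adjusted p = 0.688). Cryab measured −0.19 on the log2 scale (SE 0.09, adjusted p = 0.209). In CPM all 6 of its chow renin libraries lay below all 4 chow control libraries, as for 4.75% of all genes. Hspb1 had −0.27 (SE 0.14, adjusted p = 0.237), with overlapping groups. The values were −0.08 for Hsph1, −0.06 for Bag3, −0.01 for Hspa8, 0.0040 for Hspa1a, 0.15 for Dnajb1, 0.16 for Hspa1b and 0.20 for Hsp90aa1, with adjusted p of 0.476 or more. With the clock score as a covariate both were called lower, at −0.34 for Cryab and −0.54 for Hspb1 (adjusted p = 0.0459 and 0.0248). That score does not overlap between chow renin and chow control, so the fit can hardly tell it from the group. Cryab was also called with only these 2 groups in the fit (adjusted p = 0.0435). The share of higher calls among all genes moved with the scaling in this comparison, from 1537 higher and 511 lower to 1625 and 264 with upper-quartile factors. With both another unit and another test, limma on log2(TPM + 1), it was 1573 and 42.

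Renin on the high-fat diet was compared within that diet. Against high-fat control, 3 members were called higher in high-fat renin and 0 lower, where 11.1% of all genes were called (6.07% higher, 5.08% lower). Of all genes 923 were higher and 773 lower, against 847 and 819 with RLE size factors and 819 and 911 with upper-quartile factors. Limma on log2(TPM + 1), which changes both the unit and the test, gave 1517 and 179. The 3 members called were Hsp90aa1, Hsph1 and Hspb7, an Hsp90, an Hsp110 and a small heat shock protein of heart muscle. The median over the members was 0.34, beside −0.01 for all genes.

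In Hsp90aa1 the difference was 0.66 (log2; SE 0.14, adjusted p = 0.00625) with no overlap, which 1.95% of all genes showed to the high side. It was called in each of the 11 fits that left out 1 library of these groups. With the clock score as a covariate the value was 0.37 and not called, as were all members, while 8 of all genes were called. The score was 3.16 to 3.54 in high-fat control and 2.21 to 3.25 in high-fat renin, so it too differed with the group.

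Hsph1 (chr5:149614287-149636376, minus strand) encodes Hsp105, an Hsp110 that exchanges nucleotide on Hsp70 and helps to undo aggregates. It measured 84.7, 65.0, 64.6, 58.6 and 131 CPM in high-fat renin and 35.7, 53.6 and 64.4 CPM as lowest, median and highest of high-fat control. Chow control had 71.3, 69.0, 56.9 and 43.4 CPM, and chow renin 50.8, 58.7 and 60.6 CPM. Replicates 5 and 1 of high-fat renin were above every library of the other groups, replicate 5 by far, and the remaining 3 lay within the range of chow control. The log2 fold change against high-fat control was 0.64 (SE 0.19, adjusted p = 0.0385). It was called in 5 of the 11 fits that left out 1 library, and without high-fat renin replicate 5 it was 0.40 (adjusted p = 0.137). The other libraries whose loss ended the call were high-fat renin replicate 1 and high-fat control replicates 2, 3, 4 and 6.

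Hspb7 (chr4:141420779-141425311, plus strand) encodes the cardiovascular small heat shock protein cvHsp, which binds filamin C and is needed for sarcomere assembly. High-fat renin values were 2599.8, 2352, 2056, 1889 and 2049 CPM. High-fat control had 1457, 1735 and 2017 CPM and chow renin 1457, 1846 and 2224 CPM as lowest, median and highest, and chow control had 1755, 1759, 1764 and 1692 CPM. Chow control hearts were tightly grouped, and the 2 single-component groups spread on both sides of them. High-fat renin lay above chow control without overlap in CPM but not in TPM. Against high-fat control the value was 0.34 (log2; SE 0.10, adjusted p = 0.0278). It was called in 7 of the 11 fits that left out 1 library and not without high-fat renin replicate 1 (0.27, adjusted p = 0.132) or 2 or high-fat control replicate 3 or 6.

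The remaining members were not called against high-fat control. Hspa1a had 0.69 (adjusted p = 0.0841), Hspb1 0.37 (adjusted p = 0.0678), Cryab 0.23 (adjusted p = 0.0857) and Hspa8 0.20 (adjusted p = 0.119). Hspa1b had 0.34, Bag3 0.11 and Dnajb1 −0.24. Counting error was small beside the spread between hearts for most of these, with at least 895 reads in every library for Hsph1 and 3041 for Hspb1, but Hspa1a had 79 to 400 reads and Hspa1b 64 to 296.

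In the main fit the 2 diets under renin gave the most calls. With limma on log2(TPM + 1) 2 members were called here and 6 against high-fat control. Among genes with a mean of at least 20 CPM the numbers were 3 and 5. Against chow renin, 6 members were called higher in high-fat renin and 0 lower, where 22.6% of all genes were called (9.8% higher, 12.8% lower). They were Hspa8, Hspb1, Cryab, Bag3, Hsp90aa1 and Hspa1a. Hsph1 (0.50, adjusted p = 0.0686) and Hspb7 (0.24, adjusted p = 0.083), both with overlapping groups, were not called, nor were Hspa1b and Dnajb1. The median over the members was 0.37, beside 0.02 for all genes. In CPM, all high-fat renin libraries lay above all chow renin libraries for Hspa8, Hspb1 and Cryab, as for 5.55% of all genes. In TPM each overlapped, with lowest high-fat renin and highest chow renin values of 550 and 594 for Hspa8. For Hspb1 they were 238 and 255, and for Cryab 1243 and 1362. Among all genes 1491 were higher and 1949 lower, and 269 and 2174 with limma on log2(TPM + 1). Upper-quartile factors gave 844 and 2247, and under them Hspa1a and Bag3 were not called (adjusted p = 0.0515 and 0.0573) and Dnajb1 was called lower (−0.35, adjusted p = 0.0313).

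Hspb1 (chr5:135887919-135889563, plus strand) encodes Hsp25, the mouse form of Hsp27, which protects actin filaments. It measured 252, 188, 189, 186 and 278 CPM in high-fat renin and 128, 146 and 169.7 CPM as lowest, median and highest of chow renin. In chow control it was 187, 169, 199 and 149.7 CPM, and in high-fat control 130.1, 170.2 and 214 CPM. In CPM, though not in TPM, high-fat renin was above chow renin in every library. Its replicates 1 and 5 were well above the other 3, which lay within the range of chow control. The log2 fold change against chow renin was 0.58 (SE 0.13, adjusted p = 0.00231), and it was called in all 11 fits that left out 1 library.

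Cryab (chr9:50751325-50756636, plus strand) encodes alpha B-crystallin, which binds desmin and titin at the sarcomere. Its high-fat renin values were 1095, 969, 907, 869 and 1212 CPM, and its chow renin values had a lowest of 725, a median of 809.9 and a highest of 822 CPM. Chow control had 922, 967, 859.7 and 843 CPM, and high-fat control 696, 865 and 992 CPM. In CPM, chow renin lay apart from both chow control and high-fat renin, and the other 3 groups overlapped. In TPM it did not: chow renin was at 1136 to 1362 and overlapped chow control at 1222 to 1435, and high-fat control had the lowest mean (1178, against 1262 in chow renin). The log2 fold change against chow renin was 0.36 (SE 0.09, adjusted p = 0.00378), and it too was called in all 11 fits that left out 1 library. Hspb2 overlaps Cryab on the opposite strand by 1030 bases and had reads equal to 4.19% of those of Cryab. Whether counting used strand is not given in the sources used here, so reads of the pair cannot be fully told apart.

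Hspa8 was 0.39 log2 units higher than in chow renin (SE 0.08, adjusted p = 0.00141), and was called in all 11 such fits as well. Hsp90aa1 was higher by 0.46 (SE 0.14, adjusted p = 0.0249). That call was lost without chow renin replicate 3, 4 or 5 or high-fat renin replicate 1, and without high-fat renin replicate 5 the value was 0.30 (adjusted p = 0.105).

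Bag3 (chr7:128523616-128546981, plus strand) encodes a co-chaperone that joins Hsp70 to small heat shock proteins. It measured 251, 271, 287, 229.5 and 278 CPM in high-fat renin, and its lowest, median and highest values were 199, 225 and 232 CPM in chow renin and 206, 239.9 and 288 CPM in high-fat control. Chow control had 234, 215, 244 and 229.7 CPM. All but the lowest high-fat renin heart lay above all chow renin hearts, and high-fat control reached as high as high-fat renin. Against chow renin the value was 0.25 (log2; SE 0.07, adjusted p = 0.0153), and it was not called without chow renin replicate 1 or 3 (adjusted p = 0.0678 and 0.0539). Bag3 varied least of the 10 members over all libraries, with a coefficient of variation of 10.6%.

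Hspa1a (chr17:34969190-34972156, minus strand) and Hspa1b (chr17:34956436-34959238, minus strand) encode the same stress-inducible Hsp70 from neighbouring genes. Of the 31-base words in the Hspa1a transcript 63.8% also occur in Hspa1b, so the split of reads between both is uncertain. Hspa1a measured 16.9, 6.38, 9.69, 7.29 and 7.64 CPM in high-fat renin, 6.87, 4.39, 5.97 and 5.24 CPM in chow control, and 3.73, 5.55 and 7.99 CPM as lowest, median and highest of chow renin. Replicate 1 of high-fat renin was the highest of all libraries, and the groups overlapped. The log2 fold change against chow renin was 0.76 (SE 0.25, adjusted p = 0.0359), and without high-fat renin replicate 1 it was 0.44 (adjusted p = 0.202). It was called in 4 of the 11 fits that left out 1 library.

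Hspa1b did not follow it. It measured 10.9, 5.37, 7.54, 4.78 and 7.95 CPM in high-fat renin and 5.58, 7.61, 7.53 and 7.18 CPM in chow control, with medians of 6.97 CPM in chow renin and 4.82 CPM in high-fat control. The groups overlapped throughout, and its log2 fold change against chow renin was −0.10 (95% interval −0.60 to 0.41, adjusted p = 0.828). With the reads of both genes summed, none of the 6 comparisons was called: 0.33 against chow renin (adjusted p = 0.337), 0.53 against high-fat control (adjusted p = 0.141) and 0.42 against chow control (adjusted p = 0.337). The Hspa1a call therefore holds for reads assigned to that copy and not for the pair.

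Dnajb1 (chr8:83608193-83612653, plus strand) encodes Hsp40, the inducible J-domain protein that delivers clients to Hsp70. In high-fat renin it measured 14.7, 16.5, 17.3, 14.1 and 14.9 CPM. Chow control had 15.2, 19.2, 16.1 and 18.3 CPM, chow renin 17.5, 18.7 and 21.9 CPM and high-fat control 15.8, 16.6 and 28.1 CPM. All high-fat renin hearts lay below all chow renin hearts, as for 9.78% of all genes, but the difference of −0.30 (SE 0.12, adjusted p = 0.0755) was not called. With only these 2 groups in the fit the adjusted p was 0.00733.

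The central nervous score, a mean log2 CPM over neuron, oligodendrocyte and astrocyte markers, was 3.73 to 4.48 in chow renin and at most 2.81 in the other groups. With it as a covariate no member and 41 of all genes were called between high-fat renin and chow renin, and the members' values lay between −0.64 and 0.40. In that fit the score and the chow renin group can hardly be told apart. With the clock score as a covariate Hspa8, Hspb1, Cryab and Bag3 were called and Hspa1a and Hsp90aa1 were not (0.52 and 0.31).

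The interaction, which is the renin effect under high-fat feeding minus that on chow, was called for 2 members, Hspb1 and Cryab, where 10.4% of all genes were called (3.14% higher, 7.3% lower). Hspb1 had a value of 0.64 (SE 0.19, adjusted p = 0.0325) and Cryab one of 0.41 (SE 0.13, adjusted p = 0.0343). For Hspb1 the renin effect was −0.27 on chow and 0.37 with high-fat feeding, and for Cryab −0.19 and 0.23, none of these 4 being called on its own. Each interaction was called in 12 of the 21 fits that left out 1 library, with values from 0.54 for Hspb1 and 0.34 for Cryab, both without high-fat renin replicate 5. With the clock score as a covariate both were called. Neither was with the central nervous score, which left 25 calls among all genes. The third small heat shock protein, Hspb7, had 0.26 (adjusted p = 0.302). Hsph1 had 0.72 (adjusted p = 0.122), Hspa1a 0.69, Hsp90aa1 0.46, Hspa8 0.21, Hspa1b 0.17, Bag3 0.17 and Dnajb1 −0.39, and none of these was called. Among all genes 478 were higher and 1111 lower, 217 and 924 with limma on log2(TPM + 1), and 281 and 1200 with upper-quartile factors, under which Cryab was not called (0.36, adjusted p = 0.0626). Neither member was called with limma on TPM, with limma on the authors' matrix or among genes with a mean of at least 20 CPM.

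**Figure D3:**
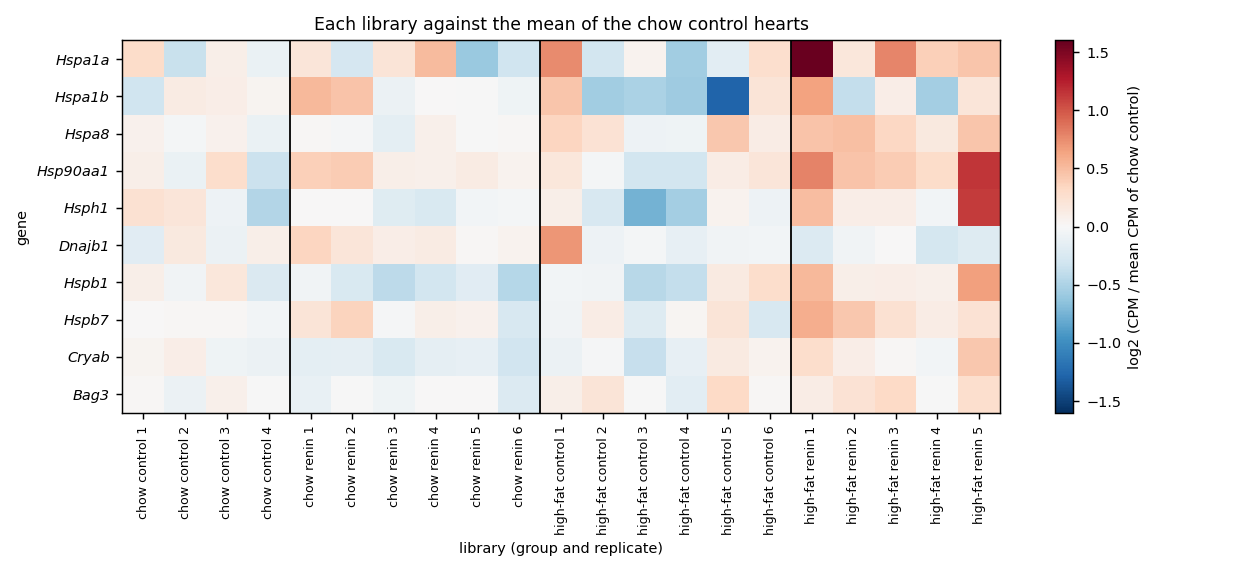
Log2 ratio of each library's CPM to the mean of the chow control hearts (colour, red higher and blue lower) for 10 genes in rows and 21 libraries in columns, with lines between groups. High-fat renin replicates 1 and 5 hold the strongest red, replicate 4 the weakest of that group, and Hspb1 and Cryab are blue across chow renin.

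Hearts of a group differed in which members were high. Within high-fat renin, replicate 5 was highest for Hsp90aa1, Hsph1, Hspb1 and Cryab, replicate 1 for Hspa1a, Hspa1b and Hspb7, and replicate 4 was lowest for 9 of 10 members. In high-fat control, replicate 1 was highest for Hspa1a, Hspa1b, Hsph1 and Dnajb1.

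After subtracting group means, Hsp90aa1, Hsph1, Hspb1 and Cryab varied together across the 21 libraries. Pearson's r of log2 CPM was 0.89 for Hsp90aa1 with Hspb1 (Spearman's rho 0.88), 0.85 for Hsp90aa1 with Hsph1 and 0.83 for Hspb1 with Cryab. Without the 2 libraries farthest from the median of the first gene, high-fat renin replicate 5 being 1 of them each time, r was 0.88, 0.88 and 0.73. For Hspa1a with Hspa1b r was 0.56 and fell to 0.22 without high-fat control replicate 1 and high-fat renin replicate 1, so it rests on those. These values share the libraries' depth and normalization and are given as a description.

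By the same measure, the genes most like Hspb7 among 5554 candidates were Atp6v1d (r = 0.89), Ykt6, Rrp12, Plin3 and Psmd12 (0.83). Those most like Bag3 were Arpc5l (0.83), Ypel5, Mrpl10, Adh5 and Vps37c (0.72). Those most like the sum of Hspa1a and Hspa1b were Tshz2 (0.74), Ifrd1, Mon2, Ddx46 and Stk38 (0.67).

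The wider network was read from 79 further genes, all of them tested: chaperones and co-chaperones, heat shock factors, BAG3 partners, cold-inducible RNA-binding genes and immediate early genes. Against chow control, 9 were called higher and 3 lower in high-fat renin, where 4.05% of all genes were called higher and 4.25% lower. Without 1 library at a time 5 to 11 were higher and 1 to 4 lower. The fewest, 5 higher and 1 lower, were called when replicate 4 of chow control, or 5 of high-fat renin, was left out. Leaving out replicate 1 or 2 of chow control gave 6 higher, with 1 and 2 lower. With only the 2 groups in the fit 6 were higher and 3 lower. With the clock score as a covariate 0 of 79 and 0 of all genes were called. Over all 23 alternatives, that fit among them, the log2 fold change was −0.54 to −0.41 for Rbm3 and 0.05 to 0.52 for Dnajb4. The other small heat shock proteins held 2 of the 9: Hspb8, which forms the autophagy complex with BAG3, and Hspb6, also called Hsp20. Hspb8 measured 314, 306, 321 and 294 CPM in chow control and 465, 467, 361, 374 and 446 CPM in high-fat renin, with no overlap (0.45, adjusted p = 0.00802). Hspb6 was higher by 0.36 (adjusted p = 0.0193), also with no overlap, as for 4.98% of all genes. Hspb2 and Hspb3, the other 2 of that list, were not called. Hspb8 was called in all 9 fits that left out 1 library of these groups, and Hspb6 in 4, and the call was lost when replicate 1, 2 or 4 of chow control, or 1 or 5 of high-fat renin, was left out (adjusted p up to 0.0614).

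Partners of BAG3 in muscle gave 2 calls of 4, filamin C (Flnc, 0.73, adjusted p = 0.00441) and Synpo2l (0.94, adjusted p = 0.0295). Flnc measured 462, 454, 526 and 451 CPM in chow control and 1034, 771, 622, 587 and 923 CPM in high-fat renin. Bag2, another BAG protein and an exchange factor of Hsp70, was higher by 0.45 (adjusted p = 0.00604). Among 8 other genes of the Hsp70, Hsp110 and Hsp90 families, Hspa1l (0.71, adjusted p = 0.007) and the Hsp110 gene Hspa4 (0.32, adjusted p = 0.0191) were called, and among J-domain proteins Dnaja4 (0.48, adjusted p = 0.00524) and Dnajb4 (0.44, adjusted p = 0.0336) of 8. Flnc, Bag2, Hspa1l and Dnaja4 were called in all 9 fits that left out 1 library. Synpo2l was called in 4, Hspa4 in 6 and Dnajb4 in 2 of them, and without high-fat renin replicate 1 Hspa4 had 0.25 and Dnajb4 0.30 (adjusted p = 0.0803 and 0.122).

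The heat shock factors gave 0 calls of 3, and Hsf1 measured 30.0 ± 1.44 CPM (SD, n = 4) in chow control and 29.8 ± 1.32 (n = 5) in high-fat renin (−0.01, adjusted p = 0.948). Hsp90ab1, the constitutive Hsp90, measured 1412 ± 44.9 CPM and 1575 ± 147 CPM (0.16, adjusted p = 0.241). Both cold-inducible RNA-binding genes, whose RNA is known to fall when temperature rises, were called lower: Cirbp by −0.65 (adjusted p = 0.00684) and Rbm3 by −0.49 (adjusted p = 0.0319). Each lay lower without overlap in CPM, and the share of all genes that did so was not computed. The immediate early gene Nr4a1 was lower by −1.59 (adjusted p = 0.0447), the single call of 8, and the 14 co-chaperones, 8 subunits of the TRiC chaperonin and 15 organelle chaperones gave 0 calls. Cirbp was called in all 9 fits that left out 1 library, Rbm3 in 6 and Nr4a1 in 2. Without chow control replicate 4 Rbm3 had −0.41 (adjusted p = 0.125) and Nr4a1 −1.39 (adjusted p = 0.136).

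**Figure D4:**
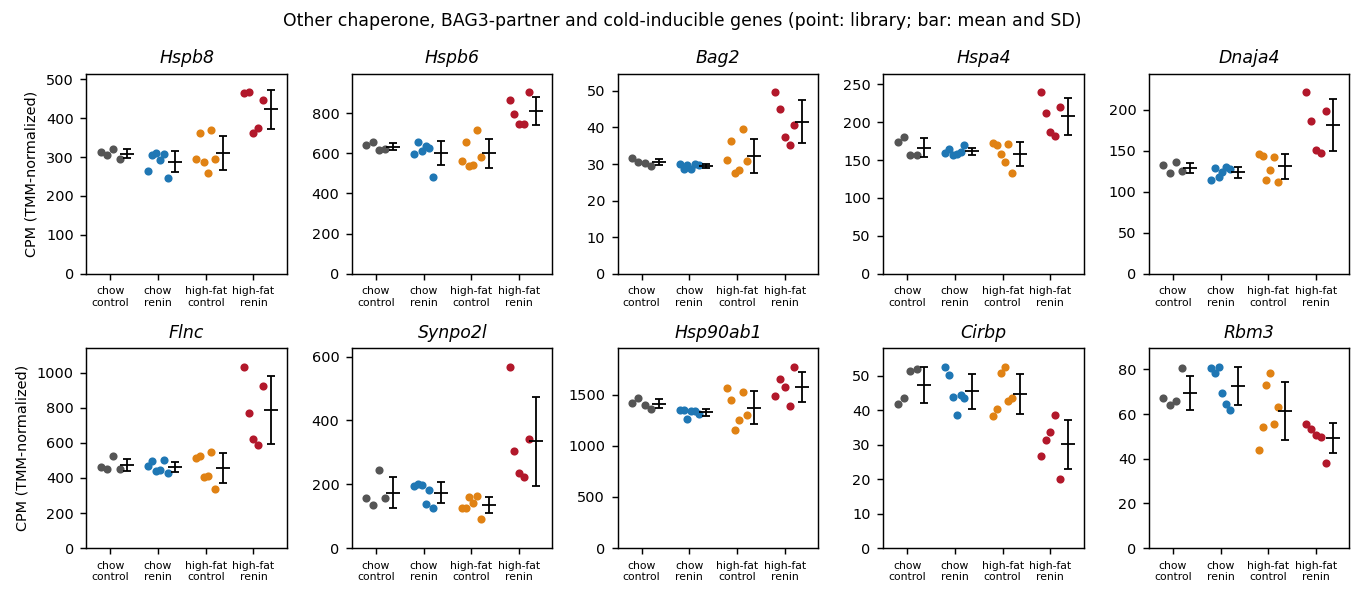
CPM (TMM-normalized, vertical axis from 0) of 10 genes outside the members, chosen for display after their values were seen, in every library of the 4 groups; bars are the mean and SD. Hspb8 and Hspb6 lie higher in all 5 high-fat renin hearts than in all 4 chow control hearts, as for 4.98% of all genes. Cirbp and Rbm3 lie lower, for which the share of all genes was not computed.

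Renin on chow gave 1 higher and 10 lower calls in the network, where 10.1% of all genes were called higher and 3.36% lower. The number of lower calls depended on the scaling, at 7 with RLE size factors and 4 with upper-quartile factors. It was 0 with limma on TPM, where unit and test both differ, and 1 to 9 without 1 library at a time. It was 1 without chow control replicate 2 or chow renin replicate 1 or 3. The gene called higher was Bag4 (0.45, adjusted p = 0.00885). The 10 lower genes were 5 co-chaperones of Hsp70 and Hsp90 (Fkbp4, Hspbp1, Unc45b and, named after their values were seen, Cacybp and Ahsa1) and 5 organelle chaperones (Dnaja3, Hspe1, Hspd1 and, likewise, Hspa5 and Hsp90b1). Their log2 fold changes lay between −0.35 (Hspa5) and −0.20 (Cacybp). Without chow control replicate 2 Hspbp1, Unc45b, Dnaja3, Hspe1 and Hspd1 were not called (adjusted p from 0.112 to 0.217), and Fkbp4 and Bag4 were called in all 10 fits that left out 1 library. The central neuron and glial markers were highest in this group, and with their score as a covariate 36 of all genes and 0 of the 79 were called, and the value of Hspbp1 was above 0.

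Within the high-fat diet, renin gave 13 calls higher and 4 lower of 79, where 6.07% of all genes were called higher and 5.08% lower. Limma on TPM gave 27 higher and 1 lower, and a fit of only the 2 groups 8 and 1. Without 1 library at a time 9 to 17 were higher and 1 to 7 lower, with 9 and 2 without high-fat renin replicate 1 and 10 and 1 without replicate 5. Adding the clock score left 0 of the 79, and 8 of all genes, called. Over all 25 alternatives, that fit among them, the log2 fold change was 0.31 to 0.56 for Hspb6 and 0.22 to 0.55 for Hspa4. Hspb6 (0.44, adjusted p = 0.00221), Hspb8 (0.44, adjusted p = 0.00374), Hspa4l (0.62), Hspa4 (0.39), Dnaja4 (0.47), Flnc (0.78) and Synpo2l (1.31) were among those higher. Lower were Cirbp (−0.57), Dnajb5 (−0.32), Stub1 (−0.25), the ubiquitin ligase CHIP that tags Hsp70 clients, and the heat shock factor gene Hsf4 (−0.45). Those named as higher, and Cirbp, were called in all 11 fits that left out 1 library, Dnajb5 in 7, Stub1 in 5 and Hsf4 in 4, with adjusted p up to 0.077, 0.147 and 0.142. Against chow renin, 25 were called higher and 4 lower, where 9.8% of all genes were called higher and 12.8% lower. Upper-quartile factors gave 15 higher and 5 lower, and limma on TPM 6 and 4. The number higher was 15 without chow renin replicate 1 or high-fat renin replicate 1 and 16 without chow renin replicate 3. In the interaction 17 were called higher and 0 lower, where 3.14% of all genes were called higher and 7.3% lower. Without 1 library at a time 9 to 20 were higher in the interaction, with 9 without high-fat renin replicate 1 and 11 without chow control replicate 1 or 2. Limma on TPM gave 10 higher, and the filter at a mean of 20 CPM gave 6 of the 67 genes it kept. Neither comparison had a call among the 79 once the central nervous score was added, beside 41 and 25 of all genes. Over all alternatives, that fit among them, Hspb6 had 0.33 to 0.46 against chow renin and 0.39 to 0.57 in the interaction. Bag2 had 0.07 to 0.55 and −0.13 to 0.48. The diet without renin gave 0 calls of 79 against chow control by edgeR, where 0.0657% of all genes were called. Of the 79, 12 had an unadjusted p under 0.05, and the share of all genes at that level was not computed. DESeq2 called 2 lower, beside 67 of 15432 genes, and limma on TPM 3 lower, beside 90 of 15216.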

How the data were processed

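RNA of 21 mouse hearts had been sequenced, 1 library per heart. Per the submitters' processing notes, transcripts were quantified with Salmon 1.10.2, and DESeq2 1.40.2 and the builds GRCm38 and mm10 are named; the index, strand setting and filters are not given in the sources used here. Per the file headers, each deposited table gives, for every transcript, an estimated count (an expected count, not scaled) and a TPM. The authors also deposited a gene matrix with a signal for each library and, from a comparison of theirs, a log2 fold change and adjusted p-value.

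Estimated counts were summed to genes with GENCODE M21 (GRCm38), which matched 97.95% of transcripts. Unmatched transcripts held 0.854% to 0.925% of reads. Sums were rounded, and filterByExpr kept 15216 of 23718 genes with reads, among them all 10 members. Library totals were 18.7 M to 29.3 M reads, which sets counting error only. Levels are TMM-normalized CPM (factors 0.886 to 1.09).

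Groups came from the sample titles. The tests used edgeR 4.0.16 under R 4.3.3, as 1 fit over all 21 libraries and a term per group: estimateDisp, robust glmQLFit and the quasi-likelihood F test, two-sided. P-values were adjusted over all tested genes (Benjamini-Hochberg), and below 0.05 a gene counts as called. The SE is the log2 fold change over the root of F, and 95% intervals use the t distribution. The fit was tested on simulated data. Libraries of a group were separate mice, and over 46 pairs of the same group a chi-square of their counts was 3.62 to 57.9 times its degrees of freedom, so none was a repeat.

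The members and lists were chosen with earlier results of these data known. All members are named in each comparison between groups and in the interaction. Other genes are named as up to 3 per list by smallest adjusted p, with Hsf1, Hsp90ab1, Hspb8, Hspb6, Cirbp and Rbm3 always allowed. The genes most like a member had a mean of at least 20 CPM and the highest r. Alternatives were DESeq2 1.42.0, limma 3.58.1 on log2(TPM + 1) and on the deposited matrix (pseudocount 1), other scalings, filters, covariates and depths, a replicate block, and each library left out.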

Additional observations from a re-analysis of the deposited data

Results flagged for a closer look

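A library far from the others of its group was found in 2 of 44 sets of 4 to 6 libraries, where chance gives about 1 in 20. For Dnajb1, replicate 1 of high-fat control was at 28.1 CPM, and its 5 companions were at 15.8 to 16.9 CPM. This heart was also the highest of its group for Hspa1a, Hspa1b and Hsph1. For Hspb7, replicate 4 of chow control was at 1692 CPM, and its 3 companions were at 1755 to 1764 CPM, a small gap in a tight group.

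The effect of renin differed between diets, by the interaction test of edgeR, for 2 members and 17 of 79 network genes, of which 16 are given here. Of all genes 10.4% were called (3.14% higher, 7.3% lower). For Hspb1 the difference was 0.64 and for Cryab 0.41 on the log2 scale. Among other small heat shock proteins it was 0.51 for Hspb6 and 0.54 for Hspb8. Among Hsp110 and J-domain genes it was 0.73 for Hspa4l, 0.43 for Hspa4 and 0.53 for Dnaja4, and for the exchange factor Bag2 it was 0.41. Co-chaperones gave 0.36 for Cacybp, 0.47 for Stip1 and 0.44 for Hspbp1, and the TRiC subunits Cct8 and Cct3 gave 0.25 and 0.29. The BAG3 partners Flnc and Synpo2l gave 0.82 and 1.31. The organelle chaperones Hsp90b1, Dnajb11 and Dnaja3 gave 0.34, 0.27 and 0.36. All 18 values given were above 0, as for 478 of the 1589 genes called. Hspb6, Hspb8, Hspa4l, Hspa4, Dnaja4, Cacybp, Flnc and Synpo2l were called in all 21 fits that left out 1 library. Hspb1 and Cryab were called in 12 of them, Bag2 in 7 (adjusted p up to 0.105), Dnaja3 in 15, Cct3 in 16, Dnajb11 in 18, Hspbp1 and Hsp90b1 in 19, and Stip1 and Cct8 in 20. None of them was called once the central nervous score was a covariate, a fit that left 25 calls among all genes. Over all 34 alternatives, that fit among them, the value was 0.39 to 0.57 for Hspb6 and −0.13 to 0.48 for Bag2.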

How the results depend on the processing

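Of 1544 member values under an alternative, 1351 kept their direction and side of the threshold, 90 lost a call, 40 gained one, 62 changed sign without a call and 1 reversed. The number of members called on the high-fat diet alone was 0 under all alternatives run. With the replicate block, members called became 4 against chow control, 2 for renin on chow and 6 against high-fat control. Calls among all 15216 genes were then 1325, 2246 and 1578. The replicate numbers were not treated as pairing the hearts, because the labels state no pairing and r exceeded 0.1 in 11 of 28 same-numbered pairs, not in all (median 0.0775, −0.226 to 0.421). Number 3 did so in all 6 of its pairs (0.22 to 0.421). A library was closest to its own number in 19 of 56 cases, which was not compared with chance. With the clock score as covariate the member counts became 0, 2 and 0, and 4 against chow renin, beside 0, 1596, 8 and 2424 of all genes. With the central nervous score they became 0 against chow renin and 0 for the interaction, beside 41 and 25 of all genes.

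Member counts are given here with the calls among all genes. For high-fat renin against high-fat control, DESeq2 called 5 members and 2151 of 14975 genes. Genes with a mean of at least 20 CPM gave 5 members and 1386 of 5565 genes, and limma on TPM 6 and 1696 of 15216. The authors' matrix gave 1 and 899 of 19096, and a fit of the 2 groups alone 1 and 549 of 14403. The fit of 2 groups gave 1 and 2499 of 14838 for renin on chow. Against chow renin, the 20 CPM filter, which removes Hspa1a, Hspa1b and Dnajb1, gave 3 members and 955 of 5565 genes. Limma on TPM gave 2 and 2443 of 15216. The interaction gave 1 member and 1481 of 15216 genes with upper-quartile factors, and 1 and 1359 of 23718 with no filter. It gave 0 members with the 20 CPM filter (178 of 5565 genes), limma on TPM (1141 of 15216) and the authors' matrix (1181 of 19096). The cause of these changes was not tested. Leaving out 1 library at a time gave 0 to 3 members against chow control, 1 to 6 against high-fat control, 3 to 8 against chow renin and 0 to 2 for the interaction. Calls among all genes in these fits were, in the same order, 565 to 1723, 696 to 2394, 2473 to 3667 and 1220 to 1951.

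Reversed values all came with the central nervous score: Hspa1a −0.41 and Hspb3 −0.36 against chow renin, Hspbp1 0.17 for renin on chow, and Dnaja4 −0.038, Bag2 −0.13 and Hspbp1 −0.076 for the interaction. Depth limits Hspa1a and Hspa1b most, at 79 to 400 and 64 to 296 reads per library.

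Calls among all genes moved by over 1.5 times as follows. Against chow control 1262 became 694 with limma on TPM, 779 on the authors' matrix, 803 with 2 groups and 0 with the clock score. Against high-fat control 1696 became 899 on the authors' matrix, 549 with 2 groups and 8 with the clock score. Renin on chow fell from 2048 to 192 with the 20 CPM filter, which tests fewer genes, and to 36 with the central nervous score. In the same order 3440 against chow renin became 955 and 41, and 1589 for the interaction became 178 and 25. The 10 calls of the diet alone were 0 (with the replicate block) to 111 (DESeq2). Without 1 library they were 0 to 57. Against chow control 1262 became 691, 623 and 565 without chow control replicates 1, 2 and 4, and 664, 793 and 686 without high-fat renin replicates 1, 2 and 5. Against high-fat control 1696 became 696, 934 and 784 without the same 3 high-fat renin libraries.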
